A study of Mus musculus with 6 samples.

Results

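The 4 vascular connexin genes Gja4, Gja5, Gja1 and Gjc1, which encode CX37, CX40, CX43 and CX45, were taken as a given list from the 31053 genes in each of 6 single-cell libraries of mouse lung. They were followed in endothelial cells (ECs), taken here as cells with at least 2 summed UMIs of Pecam1 and Cdh5, and in the cell types of whole lungs. A UMI is one counted RNA molecule. All lungs carried DsRed knocked into the Cxcl12 gene. In the time course, lungs with 1 reporter allele (Cxcl12DsRed/+) were taken at embryonic day (E) 13.5, E15.5 and E18.5 and at postnatal day (P) 8, with 2 to 4 lungs pooled at each time, and DsRed+/CD31+/EpCAM-/CD45- cells were sorted, with reporter-positive, CD31-negative mesenchymal cells also collected. The other 2 libraries, of unsorted whole E18.5 lung, are labelled as Cxcl12DsRed/DsRed homozygous null and Cxcl12DsRed/+ heterozygous control. Each condition had 1 library, so no test was possible between conditions. Intervals in parentheses are exact 95% limits for counting error, and do not cover differences between lungs.

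Connexins are membrane proteins that assemble into gap junction channels through which neighbouring cells exchange ions and small molecules. Endothelial cells of arteries are coupled mainly by CX37 and CX40, and CX40 is widely used as a marker of arterial endothelium. CX43 is the most widespread member and also couples epithelial and smooth muscle cells, and CX45 is known from smooth muscle, pericytes and the early heart.

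The genes lie on 4 chromosomes. In GRCm38, Gja4 spans chr4:127311421-127314039 on the minus strand, Gja5 chr3:96904693-97077416 and Gja1 chr10:56377330-56402513 on the plus strand, and Gjc1 chr11:102799579-102819700 on the minus strand. No stretch of 60 bases in their 3′ ends, where the reads were taken, occurred in another gene. Gja4 and Gja5 were the pair that moved together across ECs in the values that follow, so their RefSeq promoter windows are shown, from 250 bases before to 50 bases after the transcript start. The windows are chr4:127313990-127314289 (minus strand) and chr3:97032152-97032451 (plus strand) in GRCm38.p6, and the second starts inside the longer GENCODE span of Gja5. Capitals mark matches on either strand to the core letters of 4 families of factors known in arterial endothelium.
Gja4: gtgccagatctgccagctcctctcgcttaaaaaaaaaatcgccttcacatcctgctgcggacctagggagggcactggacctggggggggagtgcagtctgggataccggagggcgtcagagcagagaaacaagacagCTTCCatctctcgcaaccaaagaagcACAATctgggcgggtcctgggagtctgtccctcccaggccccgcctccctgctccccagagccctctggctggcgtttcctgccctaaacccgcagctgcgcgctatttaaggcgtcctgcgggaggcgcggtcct
Gja5: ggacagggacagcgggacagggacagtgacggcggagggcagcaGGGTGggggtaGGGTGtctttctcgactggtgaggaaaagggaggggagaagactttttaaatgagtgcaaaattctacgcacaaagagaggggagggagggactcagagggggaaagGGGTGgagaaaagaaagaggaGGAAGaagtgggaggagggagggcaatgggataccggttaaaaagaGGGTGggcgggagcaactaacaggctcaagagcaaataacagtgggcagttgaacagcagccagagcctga
The letters searched were TGGGAA (RBPJ), CACCC (KLF), ACAAT (SOX) and GGAAG (ETS), and no matches overlapped. Gja4 held 1 ACAAT and 1 GGAAG, and Gja5 held 4 CACCC, all on the reverse strand, and 1 GGAAG. Of 32851 promoter windows of this length, 31% held ACAAT, 57.5% CACCC, 71.4% GGAAG and 25.6% TGGGAA, so these matches are common and describe the sequence alone.

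The libraries held 63746333 to 117522172 UMIs. After the study's filter of at least 700 genes and 0.5% to 10% mitochondrial UMIs, the EC gate kept 210 of 12726 cells at E13.5, 9453 of 11649 in the E15.5 library, 9119 of 9542 in that of E18.5 and 8259 of 8451 in that of P8, and 2022 of 8268 and 3042 of 9157 cells of the whole lungs labelled control and null. The E13.5 library was therefore mostly not endothelial, and 43.3% of its 210 ECs held at least 2 UMIs of 6 mesenchymal genes, against 0.799% to 18.8% elsewhere. The 7 endothelial markers, among them the gate genes Pecam1 and Cdh5, summed to 5408 to 12587 CPM in gated ECs and none of the 7 was at 0. Among the whole lungs, Cxcl12 went against the labels: ECs of the library labelled control held 88 UMIs (4.24 CPM), and those of the library labelled null 17308 UMIs (499 CPM). The names of the deposited files also give these 2 libraries the opposite genotypes. Cells with 0 Pecam1 and Cdh5 UMIs held 0.22 and 31.6 CPM of Cxcl12 (labelled control first). A heterozygous lung keeps an intact Cxcl12 allele and a homozygous null does not, so both the counts and the file names go against the labels. An exchange of the labels was not tested by another measure, so the libraries are called by their labels throughout. If the labels were exchanged, every ratio between the libraries would change sign as a ratio of genotypes. The 2 libraries shared 140 cell barcodes, 7 and 11 of them in gated ECs.

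Gja4 had the clearest endothelial pattern. In sorted ECs its level, in counts per 1000000 UMIs of all genes (CPM), was 1161 CPM (1112 to 1212) at E13.5 and 732 CPM (727 to 738) in E15.5 cells, and then 994 CPM (987 to 1002) in E18.5 cells and 831 CPM (823 to 838) in P8 cells. Whole-lung ECs held 251 CPM (244 to 258) in the library labelled control and 473 CPM (466 to 480.4) in that labelled null. Every library sorted for the reporter was thus above both unsorted ones. In cells of the same libraries with 0 Pecam1 and Cdh5 UMIs, Gja4 was between 2.93 CPM at E13.5 and 64.3 CPM at E18.5, so the EC level was higher in all 6 libraries. Immune clusters, taken here as a background, held 9.73 CPM in the library labelled control and 23.9 CPM in that labelled null. Whether these UMIs were free RNA or came from the immune cells was not tested.

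Gja5 was also higher in ECs than in other cells at every age, and its level had a wider range over the ages than that of Gja4. Its level was 179 CPM (159.7 to 199) at E13.5 and 45.1 CPM (43.8 to 46.5) in E15.5 cells, and then 103 CPM (101 to 106) in E18.5 cells and 39.5 CPM (37.9 to 41.1) in P8 cells. The highest value came from the 210 ECs of E13.5 and the next from E18.5, with E15.5 and P8 lower. Whole-lung ECs held 43.8 CPM in the library labelled control and 85.2 CPM in that labelled null. Cells with 0 Pecam1 and Cdh5 UMIs held 0.781 CPM at E15.5, the lowest, and 10.7 CPM at E18.5, the highest.

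Gja1 and Gjc1 were not restricted to ECs. Gja1 was 23.9 CPM (17.3 to 32.1) at E13.5 and 18.4 CPM (17.5 to 19.3) in E15.5 cells, and then 26.4 CPM (25.2 to 27.8) in E18.5 cells and 13.9 CPM (13 to 14.8) in P8 cells. In the 4 sorted libraries the cells with 0 Pecam1 and Cdh5 UMIs held 22.1 to 64.6 CPM of Gja1, and the EC level was lower at E15.5, E18.5 and P8, with overlapping intervals at E13.5. In whole lungs the order was the other way, with 37.2 and 31.8 CPM in ECs against 18.1 and 16.1 CPM in cells outside the gate (labelled control first). Gjc1 was 74.9 CPM (62.8 to 88.7), 54 CPM (52.5 to 55.5), 61.3 CPM (59.4 to 63.3) and 81.1 CPM (78.8 to 83.3) over the same ages. Its level outside the EC gate, 63.7 to 104 CPM in the sorted libraries, was higher than in ECs at E13.5 and E15.5 and had overlapping intervals at E18.5 and P8. In whole lungs it was 50.7 and 54.8 CPM outside the gate against 38.5 and 50.9 CPM in ECs, so Gjc1 was not higher in ECs of either library.

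**Figure D1:**
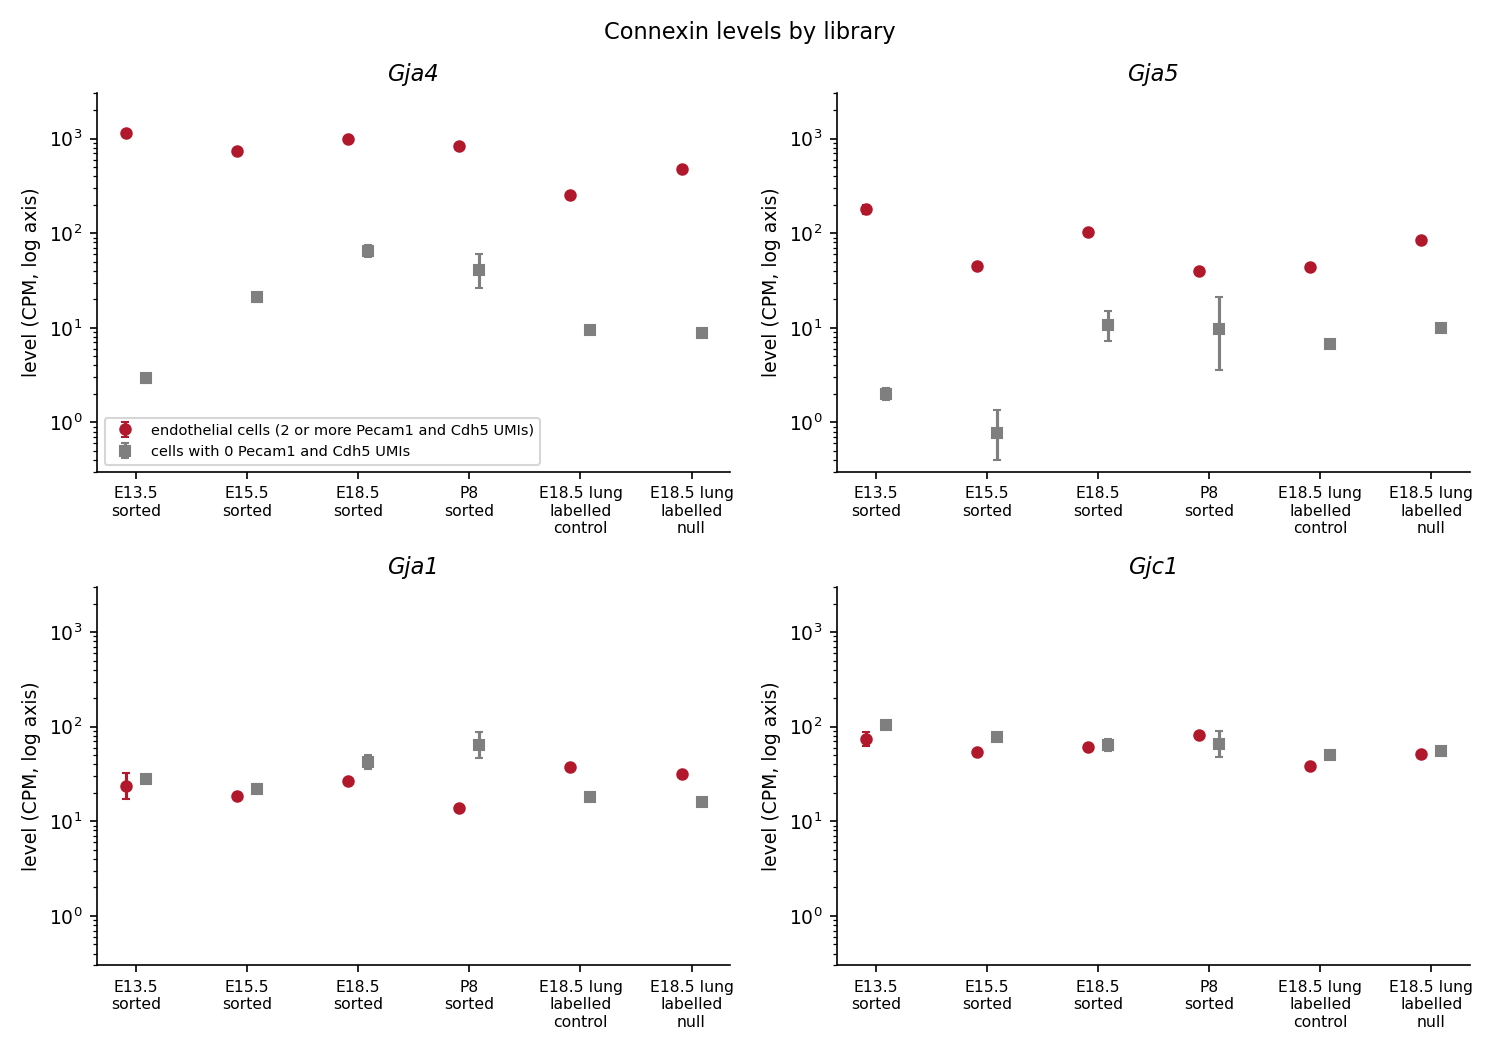
Level of each connexin in CPM (log axis) in the 6 libraries, in ECs (circles) and in cells with 0 Pecam1 and Cdh5 UMIs (squares); bars are exact 95% counting intervals, hidden where smaller than the symbol. Gja4 and Gja5 are higher in ECs in all 6 libraries, while Gja1 is higher in ECs in the whole lungs alone and Gjc1 is at most slightly higher in ECs, at P8.

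Because E13.5 had 210 ECs, ages were compared among the later libraries. The log2 ratio of P8 over E15.5, with 0.5 CPM added to both levels, was 0.58 (0.53 to 0.64) for Gjc1, 0.18 (0.17 to 0.20) for Gja4, -0.19 (-0.27 to -0.12) for Gja5 and -0.39 (-0.52 to -0.29) for Gja1. None of the 4 was past 1 in either direction, where 20.9% of the 8558 genes of at least 10 CPM were. The median ratio was -0.0049 for the connexins and 0.17 for all genes. Without mitochondrial, ribosomal protein and haemoglobin genes in the total, the median ratio shifts by -0.23, and that of Gja4 then turns to -0.045. Between E15.5 and E18.5 the ratio was 1.19 (1.14 to 1.25) for Gja5, the 1 connexin of 4 past 1, against 13.7% of 8507 genes in either direction and 8.93% higher. Gja1 had a ratio of 0.51, Gja4 of 0.44 and Gjc1 of 0.18. In this comparison the other total shifts the median by -0.13, from 0.18 (0.48 for the connexins). The summed level of the mesenchymal markers in these ECs was 443, 176 and 49.5 CPM at E15.5, E18.5 and P8. That of the lymphatic EC markers was 80.3, 259 and 43.4 CPM, with the same order of ages as Gja1, which was highest in lymphatic-like clusters. Without ECs carrying mesenchymal UMIs, the P8 over E15.5 ratios were 0.63 for Gjc1, 0.13 for Gja4, -0.22 for Gja5 and -0.40 for Gja1. The part of lymphatic cells was not tested, and these sums over all ECs do not separate more lymphatic cells from more Gja1 per cell. The capillary gene Gpihbp1 was 142, 440 and 963 CPM in the same ECs at E15.5, E18.5 and P8. The part of capillary cells in the connexin ratios was not tested either.

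Most sorted ECs were positive for Gja4. To compare shares at 1 depth, each cell was thinned at random to 2000 UMIs, which left out 2, 20, 141 and 197 sorted ECs in order of age and 9 and 22 of the libraries labelled control and null. A Gja4 UMI was then found in 84.6% (79 to 89.2) of ECs at E13.5 and 63.5% (62.5 to 64.5) in the E15.5 library, and in 62.1% (61.1 to 63.1) of those of E18.5 and 69.1% (68.1 to 70.1) of those of P8. It was found in 25.4% and 40.8% of ECs of the libraries labelled control and null. With all UMIs the shares were 92.9%, 84%, 76.4% and 87.5% in the sorted libraries. Immune cells thinned in the same way were positive in 1.13% and 2.38% of cases, at median depths of 16002 and 16247 UMIs against 8052 and 8924 in ECs. In the sorted libraries, cells with 0 Pecam1 and Cdh5 UMIs were positive in 0.613%, 4.14%, 11.5% and 5% of cases after thinning, in order of age. These were shares of 12240, 1861, 286 and 80 cells, so those of E18.5 and P8 rest on few cells.

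Gja5 was found in a minority of ECs. Its thinned share was 33.7% (27.3 to 40.5) at E13.5 and 8.92% (8.35 to 9.51) in E15.5 cells, and then 15.1% (14.4 to 15.9) in E18.5 cells and 7.08% (6.53 to 7.66) in P8 cells, or 63.8%, 25.4%, 27.6% and 16.4% before thinning. In whole-lung ECs it was 6.36% and 13% (labelled control and null), against 0.113% and 0.905% in immune cells. The order of the ages is that of the levels. In the sorted libraries, thinned cells with 0 Pecam1 and Cdh5 UMIs were positive for Gja5 in 0.4%, 0.161%, 2.45% and 2.5% of cases. Those of E15.5, E18.5 and P8 rest on 3 of 1861, 7 of 286 and 2 of 80 cells. Gjc1 was found in 13.9%, 9.9%, 11.1% and 14.5% of sorted ECs after thinning, and Gja1 in 2.4%, 3.35%, 4.37% and 2.75%. Cells with 0 Pecam1 and Cdh5 UMIs of the same libraries were positive for Gjc1 in 18.7%, 14.2%, 12.9% and 12.5% of cases and for Gja1 in 5.33%, 4.03%, 5.24% and 7.5%. At P8 these were 10 and 6 of 80 cells (Gjc1 and Gja1). In whole lungs Gja1 was found more often in ECs, in 6.81% (5.74 to 8) and 5.53% (4.74 to 6.41) of them against 2.69% (2.29 to 3.14) and 1.79% (1.46 to 2.18) of cells with 0 Pecam1 and Cdh5 UMIs, and Gjc1 less often, in 7.55% and 8.51% against 10.1% and 10.5% (labelled control and null). For Gjc1 in the library labelled null this order depended on depth, with 19.1% against 18.1% at 4000 UMIs and 37.4% against 32% before thinning. In that labelled control it held, with 13.1% against 18.2% and 27.1% against 29.3%. Before thinning the shares in sorted ECs were 41.9%, 37.8%, 30.1% and 40% for Gjc1 and 13.3%, 13.8%, 11.4% and 7.31% for Gja1.

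By combination, Gja4 alone was the most frequent state with any connexin detected, with 46.6%, 48.8%, 40.7% and 52.4% of thinned sorted ECs in order of age. Gja4 with Gja5 and no other connexin came to 24%, 6.74%, 12% and 5.05% at these ages. Gja5 alone was rare, at 0.695% to 4.33%. No connexin was found in 9.62%, 30.4%, 31.3% and 25% of sorted ECs, and in 63.4% and 49.6% of ECs of the libraries labelled control and null. A cell without a UMI at this depth can still express the gene.

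Gja4 was found more often in ECs with a Gja5 UMI than in those without, except at E13.5. At E18.5, Gja4 was detected in 91.9% (90.3 to 93.3) of ECs with a Gja5 UMI and in 56.8% (55.6 to 57.9) of those without. The corresponding shares were 87.8% and 61.1% at E15.5, 86.7% and 67.8% at P8, and 85.7% and 84.1% at E13.5, where 84.6% of all thinned ECs held Gja4. In unsorted ECs the contrast was widest, with 81.2% against 21.6% in the library labelled control and 83.2% against 34.4% in that labelled null. Spearman coefficients of the pair across thinned ECs were 0.18, 0.31 and 0.14 at E15.5, E18.5 and P8 and 0.37 and 0.38 in whole lungs. The cells of each coefficient share a library, so it is a description over 2013 to 9433 cells. Pairs with Gja1 or Gjc1 had coefficients from -0.04 to 0.04 in these 5 libraries. That of Gja1 with Gja4 was -0.02, -0.04 and -0.0081 at E15.5, E18.5 and P8, and -0.09, -0.06 and -0.01 in unthinned cells, and these weak coefficients are given as values only.

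**Figure D2:**
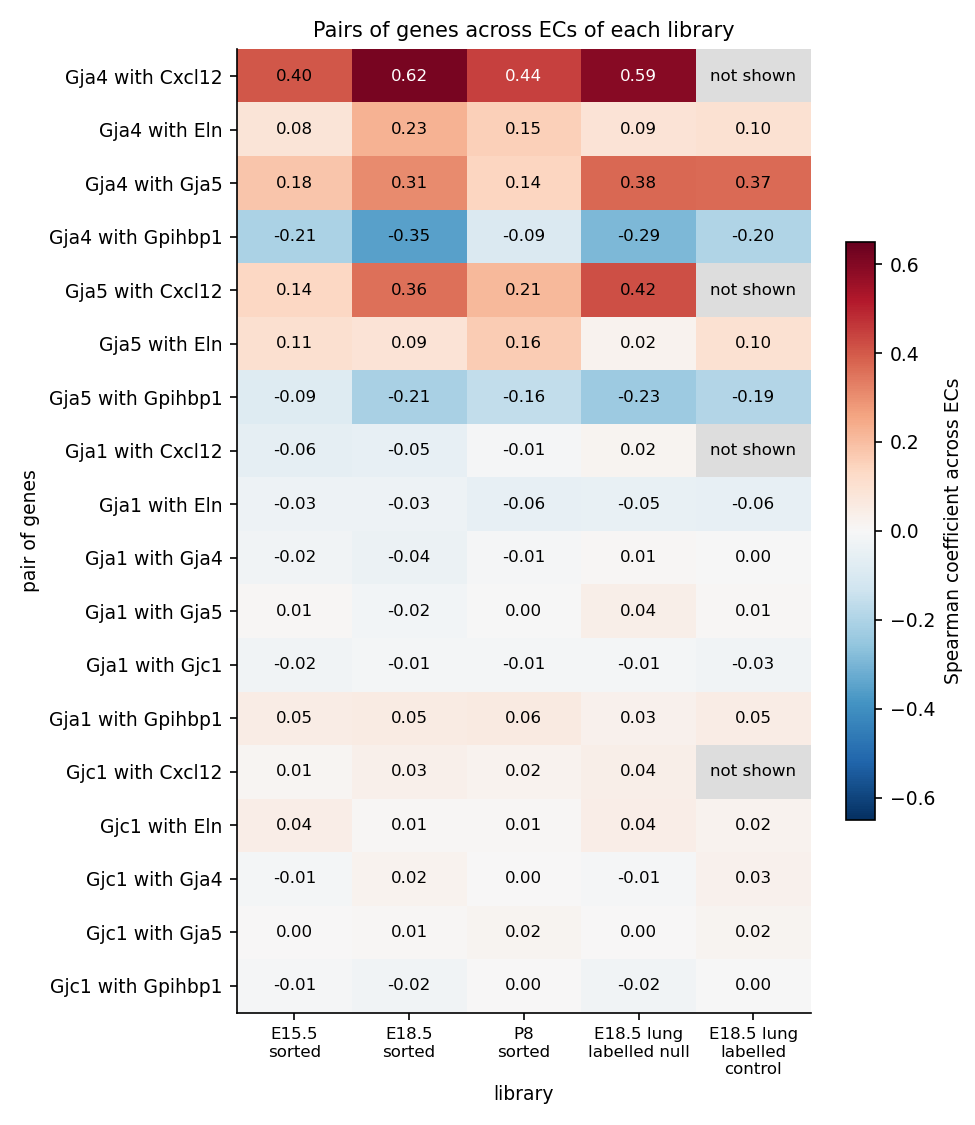
Spearman coefficients across ECs, thinned to 2000 UMIs, for 18 pairs of a connexin with another connexin, Cxcl12, Eln or Gpihbp1 (rows) in 5 libraries (columns); grey cells are pairs with Cxcl12 in the library labelled control, not shown because few ECs held it. Gja4 and Gja5 are positive with each other and negative with Gpihbp1 in every library shown, and positive with Cxcl12 where it is shown, and the rows of Gja1 and Gjc1 stay between -0.06 and 0.06.

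Cxcl12, the chemokine whose reporter was sorted, went with both Gja4 and Gja5 in the same ECs. At E18.5, Gja4 was detected in 88.5% (87.5 to 89.4) of ECs with a Cxcl12 UMI and in 37.3% (35.9 to 38.7) of those without, and Gja5 in 26.8% (25.5 to 28.1) of ECs with a Cxcl12 UMI and in 4.21% (3.65 to 4.83) of those without. The Gja4 shares were 82.7% and 46.5% at E15.5 and 80.1% and 51.1% at P8, and those of Gja5 12.7% and 5.6%, and 10% and 2.27%. Both levels rose over groups of rising Cxcl12 count, though sparse counts cannot tell graded from all-or-none expression. ECs at E18.5 with 0, 1 to 2, 3 to 9 and 10 or more Cxcl12 UMIs of 2000 held 380.2, 1211, 1817 and 2217 CPM of Gja4 and 25.7, 113, 204 and 307 CPM of Gja5. The step from no Cxcl12 to the highest stratum was steeper for Gja5 than for Gja4. Gjc1 had a narrower range over the same strata, from 56.5 to 80.2 CPM, and Gja1 was lower at the top, with 33.2 CPM at 0 and 12.3 CPM at 10 or more.

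As a log2 ratio of ECs with at least 3 over ECs with 0 Cxcl12 UMIs, Gja4 stood at 1.45 (1.43 to 1.48) in the E15.5 library, 2.32 (2.29 to 2.35) in that of E18.5 and 1.59 (1.56 to 1.62) in that of P8. Gja5 stood at 1.43 (1.34 to 1.55), 3.11 (3.03 to 3.25) and 2.86 (2.73 to 3.09). Both were therefore past 1 at all 3 ages, where 6.34%, 9.99% and 5.5% of all genes of at least 10 CPM were past 1 in either direction, and 2.81%, 4.1% and 1.93% were higher. Gja1 had -0.82, -1.06 (-1.28 to -0.90) and -0.15. Its value at E18.5 is not separated from -1, as the interval spans it and a gate of at least 4 UMIs (-0.997), gating after thinning (-0.945), the mean of the cells' CPM (-0.94) and 5 CPM added to each level (-0.89) put it within 1. Gjc1 stayed within 1 at each age, with 0.19, 0.32 and 0.02. In the library labelled null, which retained Cxcl12, Gja4 had 2.98 and Gja5 3.56, with 11.7% of genes past 1. At E13.5 the ratios over 61 and 73 ECs were 0.66 (0.50 to 0.82) for Gja4 and 1.38 (0.94 to 1.84) for Gja5. These ECs with at least 3 Cxcl12 UMIs were 33.3% of ECs at E18.5 and held 60.3% of the Gja4 UMIs and 69.2% of the Gja5 UMIs.

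Eln, which encodes the elastin of large vessel walls, is also made by mesenchymal cells, and its UMIs in ECs have a high background. In whole lungs, immune cells held an Eln UMI in 21.1% and 29.6% of thinned cells, close to the 24.5% and 31.9% of ECs (labelled control and null), so a single Eln UMI is not read as expression there. In the sorted libraries, cells with 0 Pecam1 and Cdh5 UMIs held 5279, 5995 and 3775 CPM of Eln at E15.5, E18.5 and P8, against 1169, 1169.7 and 463 CPM in ECs. The part of free RNA in the groups by Eln was not tested. Among sorted ECs grouped in this way, the Gja5 ratio was steepest at P8. ECs with at least 3 Eln UMIs held 143 CPM of Gja5 at P8 against 26.7 CPM in those with 0, a log2 ratio of 2.40 (2.27 to 2.57). The ratio was 1.11 (1.02 to 1.23) at E15.5 and 0.56 (0.46 to 0.67) at E18.5. For Gja4 it was 0.19, 0.78 and 0.46 at E15.5, E18.5 and P8, and for Gjc1 0.38, 0.06 and -0.25. Gja1 was lower in the Eln-positive ECs, with -0.89, -1.46 and -1.26. Past 1 in either direction were thus 1, 1 and 2 connexins at the 3 ages, beside 12.1%, 14.4% and 12.1% of all genes. At E18.5 Gja4 was 1602 CPM (1562 to 1643) in ECs with 3 to 9 Eln UMIs and 1218 CPM (1180.2 to 1256) in those with 10 or more, where Gja5 was 161 CPM (147 to 175).

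The genes could be separated further where Cxcl12 and Eln were read together. ECs with no Cxcl12 UMI but at least 10 of Eln held 89.5 CPM (81.2 to 98.5) of Gja5 in the E15.5 library, 136 CPM (118 to 155) in that of E18.5 and 149 CPM (124 to 178) in that of P8, over 611, 172 and 102 cells. ECs with at least 3 Cxcl12 and at most 2 Eln UMIs held 73.9, 241 and 86.2 CPM. Gja5 was thus higher in the Eln-rich, Cxcl12-negative ECs at E15.5 and P8 and lower in them at E18.5. Gja4 was lower in the Eln-rich, Cxcl12-negative ECs at all 3 ages, with 794, 813 and 665 CPM against 1291, 1922 and 1369 CPM. With neither gene and no Gpihbp1, Gja5 was 22.8, 30.3 and 8.99 CPM (at most 2 Eln UMIs). At E15.5, 10.6% of gated ECs held at least 2 UMIs of mesenchymal genes. The part of ECs captured together with mesenchymal cells was not tested in the Eln-rich groups.

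Gpihbp1, which carries lipoprotein lipase to the lumen of capillaries, marked the reverse pattern. At E18.5, Gja4 was detected in 46.5% (44.9 to 48.1) of ECs with a Gpihbp1 UMI and in 73.7% (72.5 to 74.9) of those without, and Gja5 in 6.51% (5.75 to 7.34) of ECs with a Gpihbp1 UMI and in 21.6% (20.5 to 22.7) of those without. ECs with at least 3 over those with 0 Gpihbp1 UMIs had log2 ratios of -2.35, -2.84 and -1.93 for Gja5 and -1.27, -1.73 and -0.35 for Gja4 at E15.5, E18.5 and P8. The P8 ratio of Gja4 was the smallest of the 3 in size, and Gpihbp1-rich ECs of that age held 754 CPM of it against 402 CPM at E18.5. Gja1 ran the other way, with ratios of 1.41 (1.10 to 1.77), 0.61 (0.40 to 0.83) and 0.99 (0.76 to 1.29), and Gjc1 had -0.23, -0.31 and 0.04. Past 1 in either direction were 3, 2 and 1 connexins, beside 6.43%, 6.5% and 3.14% of all genes. The whole lungs had Gja5 ratios of -2.70 and -2.78 and Gja1 ratios of 0.73 and 0.36 (labelled control and null).

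**Figure D3:**
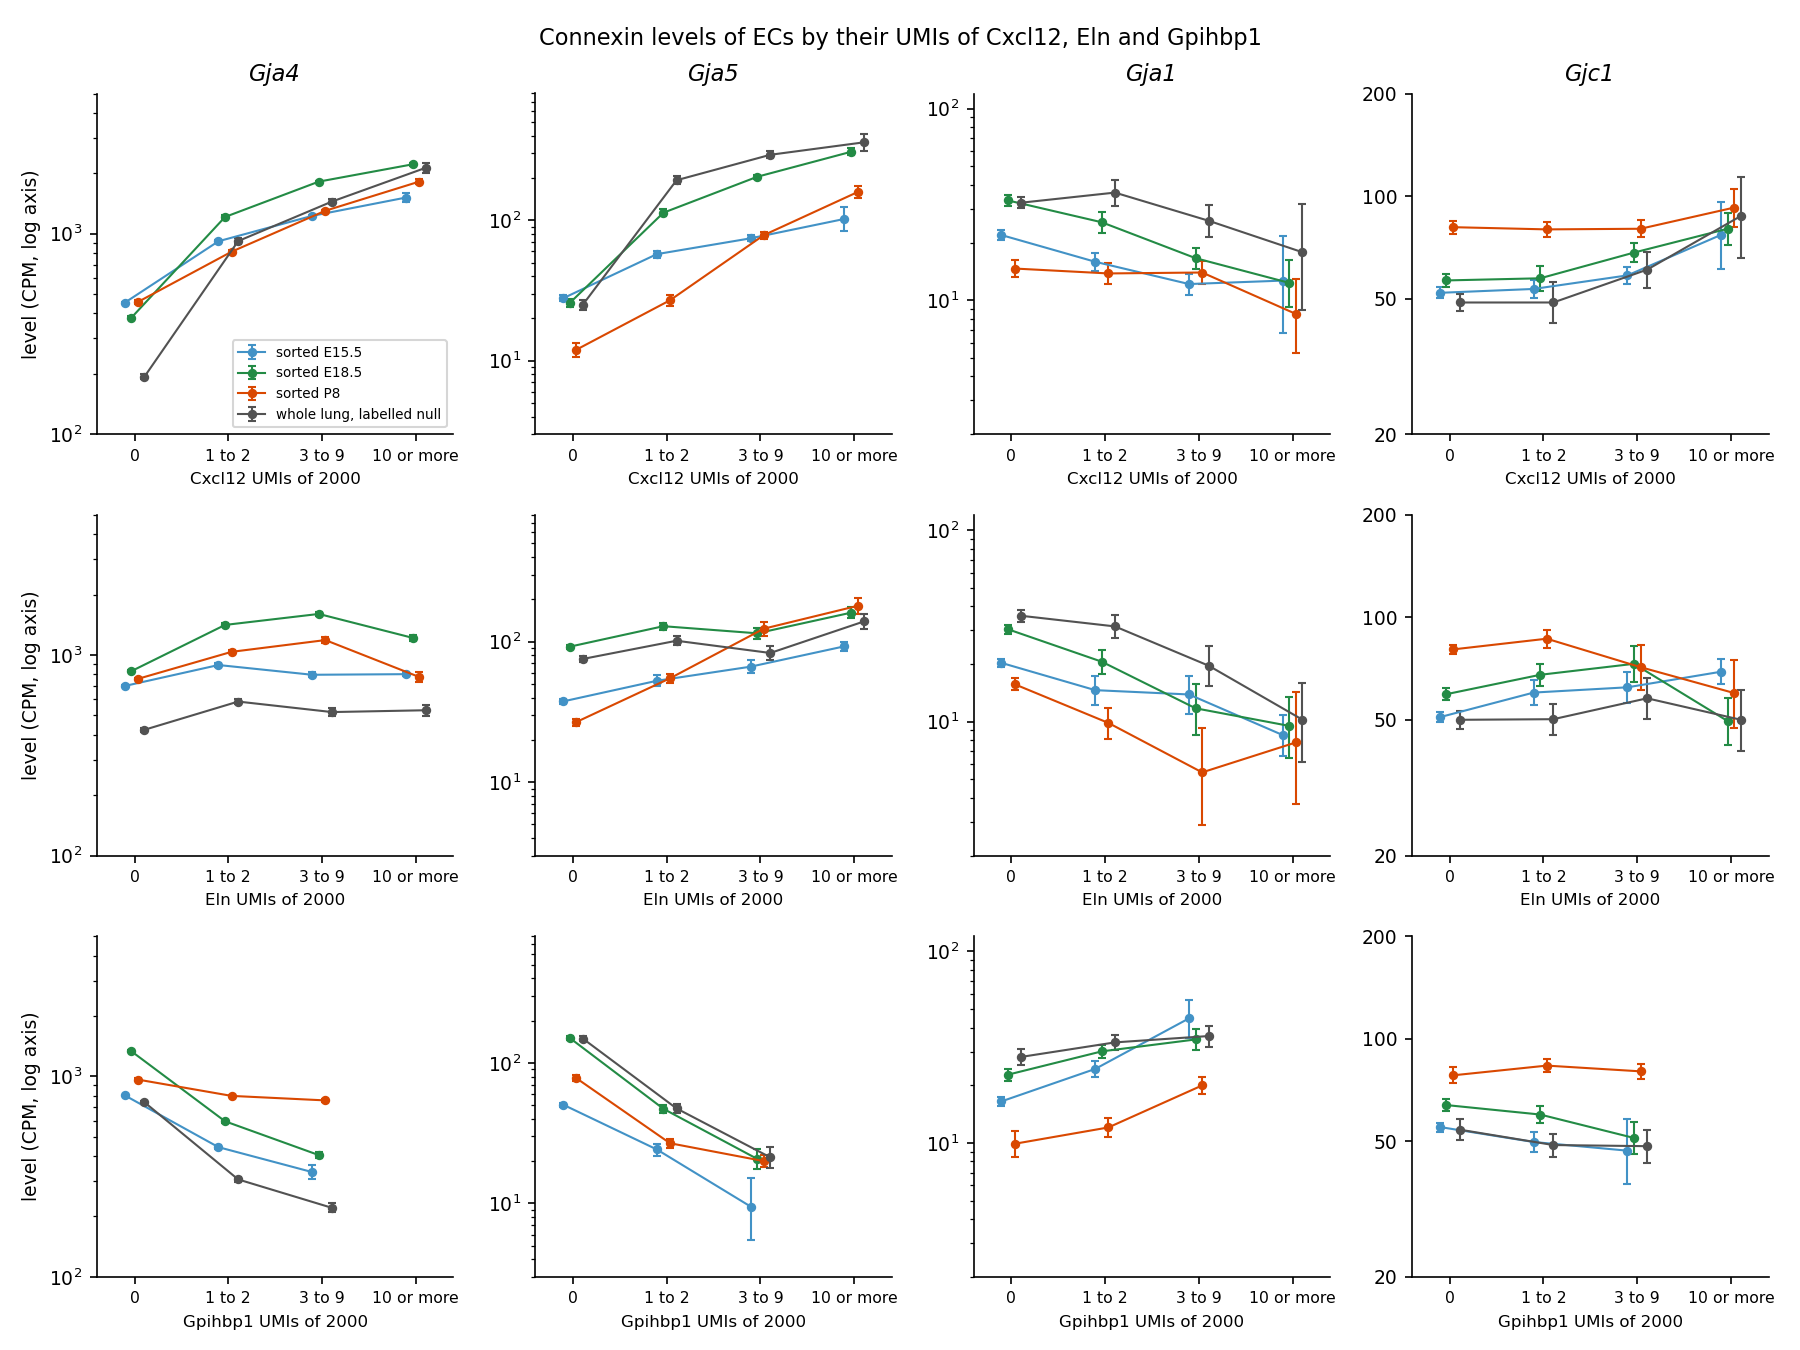
Level of each connexin (columns, CPM on log axes) in ECs grouped by their UMIs of Cxcl12, Eln or Gpihbp1 (rows) after thinning to 2000 UMIs, with 1 line per library; bars are exact 95% counting intervals and groups under 50 cells are left out. At E18.5 Gja5 goes from 25.7 to 307 CPM with Cxcl12 and from 151 to 20.7 CPM with Gpihbp1, while Gjc1 has a narrower range.

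Clusters of ECs, built without the connexins, Cxcl12, Eln and Gpihbp1 and named from fixed markers, placed these values in vessel types. At E18.5, Gja5 was highest in a cluster of 1320 cells led by Adgrg6, Rnase1 and Vwf, which passed no name, with 397 CPM (382 to 411) and 2201 CPM (2167 to 2236) of Gja4. A cluster of 1411 cells led by Alox12, Esm1 and Cxcr4 held 166 and 1644 CPM of Gja5 and Gja4, and the proximal arterial-like clusters of 730 cells (led by Lmo1 and Ptprr) and 228 cells (led by Sfrp2) held 99.6 and 171 CPM of Gja5. General capillary-like (gCap) clusters held 12.7 and 8.26 CPM of Gja5, and the Car4-led aerocyte-like cluster 10.9 CPM. Gja4 separated the same groups less, with 445 and 271 CPM in the gCap-like clusters and 182 CPM in the aerocyte-like one.

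At P8 Gja5 was 168 CPM in the proximal arterial-like cluster (329 cells, led by Mgp and Cytl1), 149.9 CPM in the arterial-like cluster led by Plac8 and 99.3 CPM in that led by Esm1. Gja4 had another order, at 937, 1636 and 1431 CPM in these 3 clusters. Capillary clusters retained much of the Gja4 of this age, with 832 CPM in the gCap-like cluster led by Bmp2 and 374 CPM in the aerocyte-like cluster, whereas Gja5 was 7.04 and 5.55 CPM there. At E15.5 the gCap-like cluster of 1957 cells held 16.7 CPM of Gja5 and 642 CPM of Gja4, and the arterial-like cluster of 1583 cells 89.6 and 1424 CPM. One proximal arterial-like cluster at E15.5, of 285 cells led by Cytl1 and Mfap5, held 877 CPM (836 to 918) of Gja4 and 77.2 CPM (65.5 to 90.3) of Gja5 beside 140.0 CPM (124 to 157) of Cxcl12. Over all arterial-like and proximal arterial-like clusters, Gja5 was 95.5, 117 and 135 CPM at E15.5, E18.5 and P8. The E18.5 value covers 958 cells and leaves out the Adgrg6-led and Alox12-led clusters, which had no name. At the coarser resolution of 0.4 it was 218 CPM over 4173 cells, above the 96.8 and 136 CPM of E15.5 and P8. The place of E18.5 thus depends on the resolution, and no order of the 3 ages is read from these sums. At both resolutions P8 was above E15.5, while the P8 over E15.5 log2 ratio of Gja5 over all gated ECs was -0.19.

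Gja1 was highest in the lymphatic-like clusters led by Ccl21a, with 244 CPM (217 to 274) in 115 cells at E18.5. Such clusters were small elsewhere, with 168 CPM (134 to 208) in 49 cells at E15.5, 136 CPM (98.2 to 184) in 29 cells at P8, 87.1 CPM (60.3 to 122) in 43 cells labelled control and 545 CPM (461 to 639) in 18 cells labelled null. In the sorted libraries, after thinning, Gja1 was found in 40.8%, 43.5% and 22.2% of these cells in order of age. Unnamed clusters led by Fabp4 came next at E15.5 and E18.5, with 53.1 CPM in 464 cells and 65.2 CPM in 272 cells, and one in the library labelled control held 85.9 CPM in 213 cells. Arterial-like ECs held little, with 6.43 CPM at E15.5 and 7.5 CPM in the Plac8-led cluster at P8, although the Esm1-led arterial-like cluster at P8 held 32.2 CPM (27.5 to 37.6). Gjc1 had a narrow range over clusters of over 100 cells, from 38.5 to 106 CPM at E15.5 and from 39.7 to 78.5 CPM at E18.5. At P8, among clusters of this size, it was highest in the proliferating-like cluster with 117 CPM (107 to 128) and in a gCap-like cluster led by the replication genes Hells and Mcm5 with 116 CPM (106 to 126).

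Across ECs of the sorted E15.5, E18.5 and P8 libraries, the 3 genes whose pattern was most like that of Gja4, of 4350 other genes found in at least 5% of thinned ECs, were Cxcl12 (mean Spearman coefficient of the 3 libraries 0.488), Tm4sf1 (0.472) and Stmn2 (0.349). For Gja5 they were Vwf (0.245), which encodes von Willebrand factor, Fbln5 (0.242), an elastic fibre protein gene, and Cxcl12 (0.235). For Gja1 they were Tmsb4x (0.0744), Gpihbp1 (0.0541) and Cxcr4 (0.0509), and for Gjc1 Tyms (0.0388), Klf2 (0.0369) and Klf4 (0.0363). The coefficients of Gja1 and Gjc1 are weak, come from sparse counts and are given as values only. With log-normalized values of unthinned cells, 2 of the 3 genes of Gja4, 1 of Gja5, 2 of Gja1 and 0 of Gjc1 were again among the first 3. The first was then Gpihbp1 for Gja1 (0.127) and Dnajc9 for Gjc1 (0.123).

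Other genes of gap junctions were nearly silent in ECs. Of 21 further connexin, pannexin and zonula occludens genes, 18 stayed under 10 CPM in all 6 libraries, the highest of them being Gjb5 with 1.66 CPM at E13.5, and 5 had no UMI. Tjp1, which encodes the junction scaffold ZO-1, held 135 to 330.2 CPM. Panx1, a pannexin channel gene, reached 16.1 CPM at E13.5 and 5.83 to 7.32 CPM elsewhere. Among 16 genes of the arterial program, such as Dll4, Hey1 and Sox17, 6 were higher and 1 lower past a log2 ratio of 1 at E18.5 over E15.5, the comparison in which Gja5 was higher, where 13.7% of all genes were past 1 in either direction and 8.93% were higher. At P8 over E15.5, 4 were higher and 2 lower, beside 20.9% of all genes past 1. The 6 higher at E18.5 were Klf4 (ratio 1.82) and Klf2 (1.52), which encode transcription factors that respond to blood flow, Hey1 (1.39), Dll4 (1.37), Nrp1 (1.08) and Efnb2 (1.01), and Hey2 (-1.17) was the 1 lower. With the total that shifts every ratio by -0.13, Efnb2 and Nrp1 were no longer past 1, which leaves Klf4, Klf2, Hey1 and Dll4. The medians of the list were 0.53 and 0.39 against 0.18 and 0.17 for all genes.

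In whole E18.5 lungs the connexins divided among cell types. Pericyte-like cells held the highest Gjc1, with 288 CPM (269.9 to 308) in 281 cells of the library labelled control and 287 CPM (268 to 307) in 260 cells of that labelled null, or 39.9% and 32.3% of thinned cells. Among named cell types outside the endothelium they also held the highest Gja4, at 162 CPM (149 to 177) and 154 CPM (139.7 to 168), or 23.8% and 23.5% of cells, with 35.4 CPM or less in every other named type of both libraries. The 7 endothelial markers summed to 309 and 342 CPM in these clusters, against 7765 and 8177 CPM in gated ECs. In pericyte-like cells with 0 Pecam1 and Cdh5 UMIs, Gja4 was as high, at 163 and 146 CPM. After the authors' SoupX adjustment for free RNA, Gja4 was 205 and 136 CPM and Gjc1 454 and 344 CPM in all pericyte-like cells.

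Gja5 had a second site in alveolar fibroblast-like cells, which held 28.7 CPM (25.7 to 31.9) in 1500 cells of the library labelled control and 44.1 CPM (40.3 to 48.1) in 1225 cells of that labelled null. Its thinned shares there were 5% and 8.5%, above the 0.113% and 0.905% of immune cells. The other named mesenchymal types, glial-like cells included, held 0.276 to 11.8 CPM in the library labelled control. Gja4, the connexin with most UMIs in ECs, was 1.6 and 3.69 CPM in the alveolar fibroblast-like cells. Among those with 0 Pecam1 and Cdh5 UMIs, Gja5 was 28.5 and 44.9 CPM, and after SoupX adjustment 34.9 and 45.8 CPM in all of them.

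Outside the endothelium, Gja1 was highest in alveolar epithelium. Cells like alveolar type 1 (AT1) cells held 139 CPM (125 to 153) in the library labelled control and 188 CPM (172 to 206) in that labelled null, and those like alveolar type 2 (AT2) cells 75.6 CPM (68.2 to 83.7) and 108 CPM (97.5 to 120.1), while secretory-like cells held 27.1 and 28.3 CPM. After SoupX adjustment Gja1 was 220 and 229 CPM in AT1-like cells and 113 and 126 CPM in AT2-like cells. Alveolar fibroblast-like cells had almost none, with 0.756 and 0.614 CPM in deposited counts. Smooth muscle-like cells held 86.2 and 11.6 CPM of Gja1 in the libraries labelled control and null, but the name covered 115 cells in one and 420 in the other. Both clusters were led by Actc1 and Actg2, and no ratio is drawn between clusters of such different size. Gjc1 was nearly equal in myofibroblast-like cells of both libraries in deposited counts, at 91.2 and 91.5 CPM, but 130 and 105 CPM after SoupX adjustment. Adventitial fibroblast-like cells held 49.8 and 58.6 CPM of it in deposited counts. Epithelial types held 6.85 to 18.4 CPM of Gjc1 in the library labelled control, beside 9.98 CPM in immune cells.

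**Figure D4:**
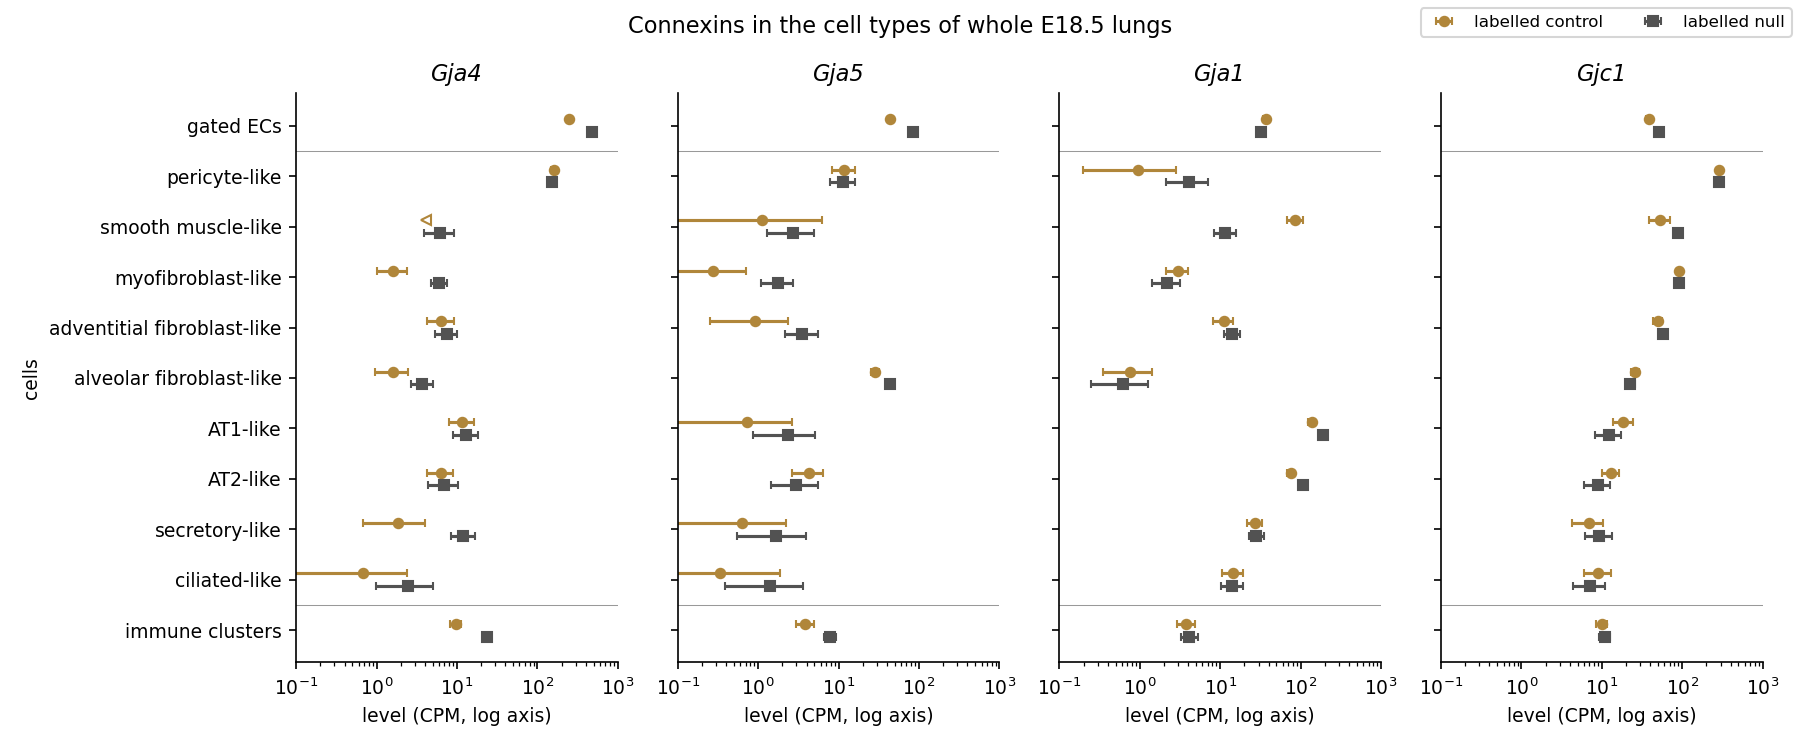
Level of each connexin (CPM, log axes) in gated ECs, in a fixed set of named mesenchymal and epithelial cell types and in immune clusters of the 2 whole E18.5 lungs (circles, labelled control; squares, labelled null); bars are exact 95% counting intervals and an open triangle is the upper limit of a count of 0. Among the cells drawn, Gjc1 is highest in pericyte-like cells (288 and 287 CPM), Gja1, outside the endothelium, in AT1-like cells, and Gja5 outside the endothelium in alveolar fibroblast-like cells.

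Between the whole-lung ECs, Gja4 and Gja5 were higher in the library labelled null, the one that held Cxcl12. The log2 ratio of labelled null over labelled control was 0.91 (0.87 to 0.96) for Gja4, 0.95 (0.85 to 1.07) for Gja5, 0.40 (0.28 to 0.52) for Gjc1 and -0.22 (-0.36 to -0.09) for Gja1. None of the 4 was past 1, where 0.857% of 8752 genes were, and the median ratio was 0.65 for the connexins and -0.01 for all genes. None of the 15 arterial program genes tested was past 1 and their median was 0.22. Gja4 also differed in immune clusters, at 1.25 (1.02 to 1.57) over 23.9 and 9.73 CPM (labelled null and control), where Gjc1 had 0.11 (-0.20 to 0.44). Gja5 and Gja1 were under 10 CPM in these clusters in both libraries, with 7.87 and 3.88 CPM of Gja5 and 4.15 and 3.81 CPM of Gja1. Markers of other cells in the gated ECs also moved between the libraries, with 513 against 1714 CPM of erythroid, 262 against 485 CPM of immune and 1089 against 841 CPM of mesenchymal markers (labelled null and control). Without ECs carrying mesenchymal UMIs the ratio was 0.99 for Gja4 and 1.04 for Gja5, and without cells outside endothelial clusters 0.86 and 0.91, so whether Gja5 is past 1 depends on the cells kept. With SoupX-adjusted values the ratios in ECs were 0.59 for Gja4, 0.58 for Gja5, -0.58 for Gja1 and 0.37 for Gjc1. The adjustment also raised some levels outside ECs more in the library labelled control. Gjc1 of pericyte-like cells went from 288 to 454 CPM there and from 287 to 344 CPM in that labelled null. Gja1 of AT1-like cells went from 139 to 220 CPM and from 188 to 229 CPM. Gjc1 of alveolar fibroblast-like cells fell in both, from 26.2 to 22.2 CPM and from 22.6 to 20.2 CPM. The part of such a shift in the adjusted EC ratios was not tested. The part of free RNA was not tested, and a difference between genotypes cannot be told apart from one between these 2 libraries. As Cxcl12 and the file names go against the labels, these ratios give no direction for the genotype: with exchanged labels, Gja4 and Gja5 would be lower in the null.

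The size of the difference depended on which ECs were compared. In the arterial-like and proximal arterial-like clusters, of 599 cells in the library labelled null and 355 in that labelled control, the log2 ratio was 0.45 (0.40 to 0.51) for Gja4 and 0.49 (0.37 to 0.62) for Gja5, and with SoupX-adjusted values 0.05 and 0.08. In all other EC clusters the ratio in deposited counts was 1.26 (1.18 to 1.35) for Gja4 and 1.80 (1.58 to 2.16) for Gja5. These other clusters include, in the library labelled null, an unnamed one of 427 cells led by Cxcr4, with 851 CPM of Gja4 and 150.3 CPM of Gja5, and no cluster of the other library was led by Cxcr4. They also include clusters with mesenchymal leading genes in both libraries. The aerocyte-like clusters, both led by Car4, held 84.6 and 24.9 CPM of Gja4 (labelled null and control), a ratio of 1.74 (1.28 to 2.27). Gja1 was lower in the library labelled null in the arterial-like clusters, at -0.72 (-1.12 to -0.35), and Gjc1 was higher by 0.45. In deposited counts the order of the libraries was the same for Gja4 and Gja5 in the arterial-like and in the other clusters. The SoupX-adjusted arterial-like ratios of 0.05 and 0.08 hold no clear order. The part in them of the unequal effect of the adjustment on the libraries was not tested.

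**Figure D5:**
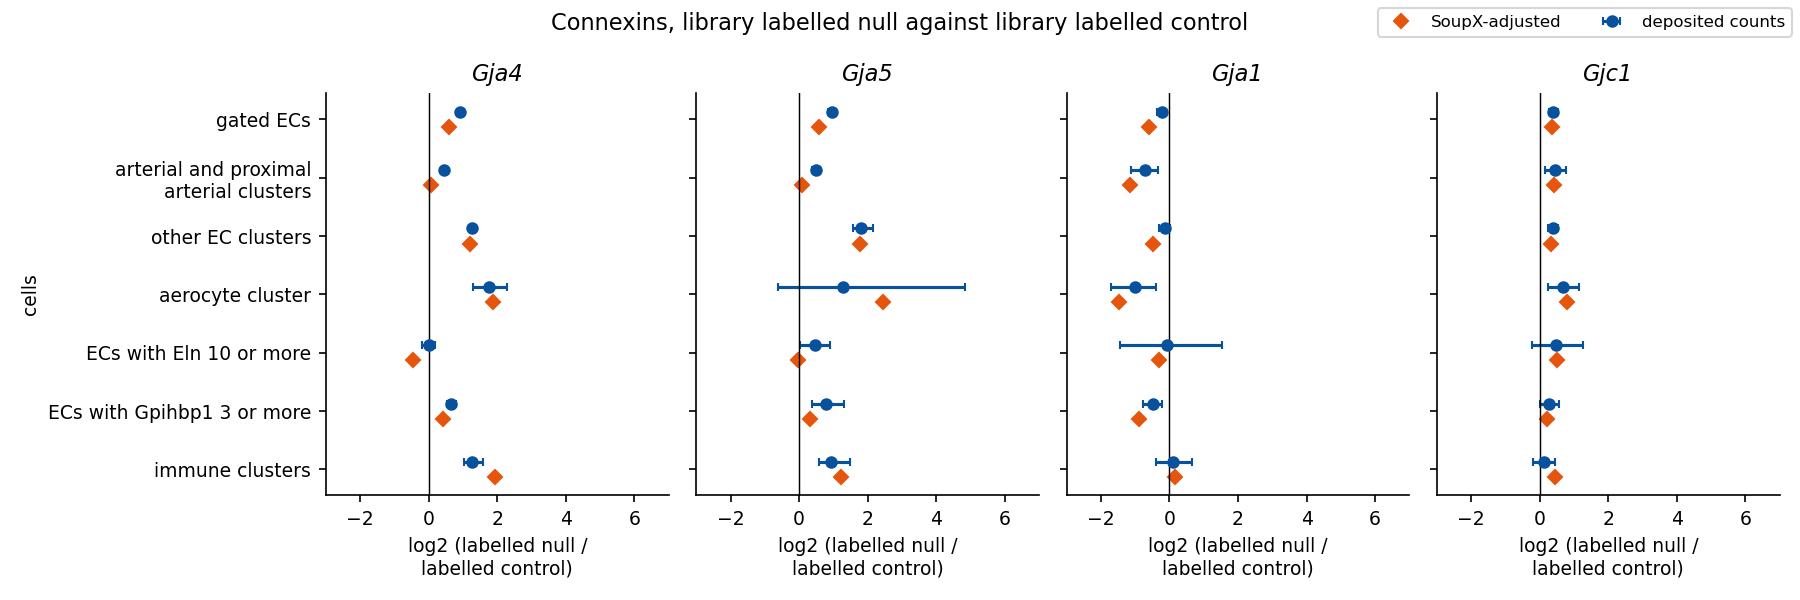
Log2 ratio of each connexin between the whole E18.5 lungs (library labelled null over library labelled control) in gated ECs, in parts of them and in immune clusters; circles are deposited counts with exact 95% counting intervals and diamonds SoupX-adjusted values. Gja4 and Gja5 lie above 0 in gated ECs and near 0 in the arterial-like clusters after adjustment. Gja4 lies above 0 in immune clusters too, where Gja5 was under 10 CPM in both libraries and is not read.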

How the data were processed

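Single cells of mouse lung had been captured with 10x 3′ v3 chemistry. The authors made whole UMI counts per gene and cell with Cell Ranger (3.1 in the methods, 3.0.2 or 3.1.0 in the file headers) on mm10 and deposited these counts for all 6 libraries. Expected counts, which SoupX had adjusted for free RNA and the authors deposited for the 2 whole-lung libraries, were used here as an alternative only.

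Cells with at least 700 genes and 0.5% to 10% mitochondrial UMIs were kept, and ECs were gated on at least 2 Pecam1 and Cdh5 UMIs. Levels were summed UMIs in CPM, with exact 95% Poisson limits, and shares were taken after thinning to 2000 UMIs, with exact 95% Clopper-Pearson limits. Log2 ratios used 0.5 CPM added to each level and genes of at least 10 CPM in one group. Their 95% limits are exact conditional limits of the plain ratio, without the added 0.5 CPM. Each library was clustered on its own (Louvain, resolution 0.8, on 25 or 20 components of analytic Pearson residuals with theta 100 for 3000 variable genes and 20 neighbours), leaving out the 4 connexins, Cxcl12, Eln and Gpihbp1. Clusters were named "X-like" from marker lists at a score of at least 0.2, a limit set after the clusters had been seen. Doublets were kept; Scrublet calls were removed in an alternative. Python 3.11.15, numpy 2.4.6, scipy 1.17.1, pandas 2.3.3, scanpy 1.11.5, igraph 0.11.9 and matplotlib 3.10.9 were used, and the scripts were tested on simulated data. Members and lists were chosen with earlier results of these data known. Named were the connexins, Cxcl12, Eln, Gpihbp1, other gap junction genes of at least 10 CPM in ECs and the 3 genes most like each connexin, and a few list members and cluster-leading genes were named after their values were seen. With 1 library per condition no tests were run. The level of 1 other gap junction gene is not reported here.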

Additional observations from a re-analysis of the deposited data

How the results depend on the processing

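The log2 ratios of 3 comparisons were recomputed under other gates, filters, scalings, pseudocounts and thinning depths, giving 124 values, of which 103 stayed within the counting interval of the reported value, 20 moved out of it and 1 changed sign. For P8 over E15.5, the total without mitochondrial, ribosomal protein and haemoglobin genes turned Gja4 to -0.045 and moved Gja5 to -0.42, Gja1 to -0.62 and Gjc1 to 0.36, as the smaller total shifts all genes. Gating after thinning gave 0.023 for Gja4 and -0.45 for Gja5, and Gja4 had 0.16 over every deposited barcode, 0.12 as the mean of the cells' CPM, 0.13 without ECs carrying mesenchymal UMIs and 0.14 without cells of mesenchymal or erythroid clusters. For ECs with at least 3 over 0 Cxcl12 UMIs at E18.5, thinning to 4000 UMIs gave 2.49 for Gja4 and 3.29 for Gja5, the mean of the cells' CPM 2.28 for Gja4, and 5 CPM added to each level 2.91 for Gja5 and -0.89 for Gja1. For labelled null over labelled control, SoupX-adjusted values gave 0.59 for Gja4, 0.58 for Gja5 and -0.58 for Gja1, the mean of the cells' CPM 1.08 for Gja5, and Gja4 had 0.99 without ECs carrying mesenchymal UMIs and 0.86 without cells outside endothelial clusters. Where no construction of the alternative shows it, the cause was not tested. Removing cells of other clusters and removing the 140 shared barcodes were chosen after seeing the data. Scrublet called 1, 0 and 0 cells at E13.5, E18.5 and P8, where it did not work, and 394 at E15.5, of which 390 were ECs (4.13%). In the whole lungs it called 212 gated ECs (10.5%) of the library labelled control and 302 (9.93%) of that labelled null. Its calls were removed only in an alternative of the whole-lung ratios. They remain in every E15.5 value and in all other whole-lung values, among them levels, shares, gene pairs and cell types. No replicate could be left out and no paired analysis was possible because each condition had 1 library.

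Cluster levels depend on which cells take a name: at resolution 0.4, Gja4 in the arterial-like and proximal arterial-like clusters of E18.5 was 1817 CPM, and with another seed Gja5 in those of P8 was 153 CPM. Coefficients with the most similar genes were higher in unthinned cells, such as 0.605 for Gja4 with Cxcl12 and 0.419 for Gja5 with Vwf. Depth limits Gja1, which few thinned ECs held, and the number of cells limits E13.5, with 210 ECs.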
